A study of Homo sapiens with 15 samples.

Results

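Nuclei digested with 10 U of P1, the highest amount in the series, were compared with nuclei that received no P1. The comparison took in 6 of the 15 samples, picked by their titles: replicates 1 to 3 with 10 U and replicates 1 to 3 without enzyme. All samples came from K562, an established line from a human chronic myeloid leukemia, labelled WT, and every library started from formaldehyde-crosslinked nuclei that had passed through SDS and Triton X-100. P1 acted for 10 min at 37 °C, and the 0.01, 0.1 and 1 U samples, 3 of each, are used below only as the other values against which 10 U was tested.

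P1 is a nuclease that preferentially cuts single-stranded DNA and leaves a 3′-OH end. The paper states that P1 also has a low activity on double-stranded DNA. With the highest amount, the paper saw genomic DNA visibly degraded. The paper proposes that samples with this amount could serve as a further negative control, with single-stranded regions degraded or depleted. Whether an enzyme cut at this amount lay in single-stranded or double-stranded DNA was not tested. SSiNGLe-P1 adds a polyA tail to every 3′-OH end in the DNA, so that each mapped end (a terminus) is either an enzyme cut or a break that was there before, and the untreated nuclei show the latter. In mitochondria the replicating molecule exposes long single-stranded stretches of the heavy (H) strand, and the non-coding region (NCR), which holds the origin of H-strand synthesis and the transcription promoters, contains the displacement loop with its short extra strand. In nuclei, single-stranded DNA is known from replication forks, R-loops and open promoters.

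The labelled cell line fitted the data: CDKN2A, a cell cycle inhibitor gene deleted in K562, held 0 sites in all 6 samples, while ABL1 and BCR, which are fused and amplified in this line, had a density of sites 8.31 to 9.02 and 11.9 to 13.6 times that of the whole genome. Samples of the 2 groups held between 2398335 and 4225443 nuclear termini at 2156151 to 3859475 unique positions and strands (sites). Mitochondrial termini numbered 112179, 468797 and 486276 in untreated replicates 1 to 3 and 42899, 57127 and 29622 in the 10 U replicates. Untreated replicate 1 stood apart from the other untreated samples, with the deepest nuclear library, the lowest mitochondrial share and the fewest close neighbours of the same strand, so results that rest on it are given without replicate 1 as well. The reads carry no molecular identifiers, and the counts therefore include PCR copies of the same end.

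The places where the 10 U samples coincided are shown first, as examples of the letters around ends, which the later counts summarise over all sites. These places were picked on the 10 U and untreated values, and their values are a description with no test. The authors' lists of regions denser in 10 U sites than in the untreated sample of the same number held 17217, 32031 and 13263 regions on chromosomes 1 to 22 and X, with median widths of 40, 40 and 50 bp. Each list shared between 8.16 and 20.7% of its regions with another replicate's list, and 1593 stretches lay in all 3 lists. The 3 of these stretches with the most 10 U sites are printed below from the top strand of hg19, with capitals at each base where an end of the same strand was mapped in all 3 of the 10 U samples.
TPCN2 intron, chr11:68900261-68900370: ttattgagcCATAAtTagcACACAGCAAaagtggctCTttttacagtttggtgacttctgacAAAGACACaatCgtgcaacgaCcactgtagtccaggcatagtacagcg
NEDD4L intron, chr18:55844501-55844610: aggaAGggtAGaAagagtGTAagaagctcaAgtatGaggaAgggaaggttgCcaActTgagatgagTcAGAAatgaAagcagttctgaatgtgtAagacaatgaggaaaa
intergenic, chr3:27076721-27076800: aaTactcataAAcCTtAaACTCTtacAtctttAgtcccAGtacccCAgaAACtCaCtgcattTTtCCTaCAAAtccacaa

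The stretch in the intron of TPCN2, a gene for a lysosomal cation channel, held 47, 49 and 52 sites in the 10 U replicates and 17, 14 and 18 in the untreated ones. That in NEDD4L, which encodes a ubiquitin ligase of ion channels, held 41, 58 and 47 sites against 4, 8 and 10. In these stretches the ends were spread over many neighbouring bases, with 27 and 21 bases used in every 10 U sample, and 31 in the intergenic stretch on chromosome 3. The G and C content of the 3 was 43.6, 40.9 and 36.25%, below the median of 51.7% over the 1593 stretches. They are therefore not typical in base content. Of the 1593 stretches, 891 lay in introns, 637 between genes and 65 in exons of protein-coding genes, 18 lay within 1 kb of a gene start, and 763 also held a site in at least 1 untreated sample. By length, introns make up 42.9%, intergenic sequence 53.6%, exons 2.93% and the 1 kb around gene starts 1.30% of these chromosomes. The 10-Mb bins with the most stretches were those from 20 to 30 Mb of chromosome 22, with 37 or 2.32% of the stretches, and from 130 to 140 Mb of chromosome 9, with 32 or 2.01%, which hold the amplified BCR and ABL1 genes. The same bins held 1.11 to 1.19% and 0.908 to 0.998% of all 10 U sites.

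Single positions recurred as well. Of 8233882 positions and strands seen in any 10 U sample, 7346 were seen in all 3, and 2391 of these were seen in no untreated sample, while 2968 were seen in every untreated sample. Of the 6962 positions that all 3 untreated samples shared, 1080 were seen in no 10 U sample. Positions among the 2391 with the most termini are printed with the broken strand in the 5′ to 3′ direction, and the capital marks the mapped terminal base. Where that base lies in or just before a run of A, as on chromosomes 1, 5 and 10, the true end is not certain, because the added tail is also of A. Among positions with more termini than the last 4 printed, and themselves not printed, were 2 adjacent ones in an intron of EIF3E, a translation initiation factor gene, with 14, 10 and 7 and with 7, 14 and 8 termini in 10 U replicates 1 to 3.
NEDD4L intron, minus strand, chr18:55844486-55844525: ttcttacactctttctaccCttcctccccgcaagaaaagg
intergenic, minus strand, chr1:144530906-144530945: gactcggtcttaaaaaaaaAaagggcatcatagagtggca
intergenic, plus strand, chr5:91403694-91403733: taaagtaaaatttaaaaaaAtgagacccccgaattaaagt
PKIB intron, plus strand, chr6:123016015-123016054: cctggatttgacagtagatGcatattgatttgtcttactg
intergenic, plus strand, chr10:42391767-42391806: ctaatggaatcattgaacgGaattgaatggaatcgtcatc

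The NEDD4L position had 10, 26 and 16 termini in 10 U replicates 1 to 3 and lies inside the stretch printed above. The other 4 positions printed were tied at 22 termini over the group; that on chromosome 10 consists of ggaat-like repeats, where a read can be placed at several points. When every sample was thinned to 2156151 sites, 2 samples of the 10 U group shared 0.822 to 0.880% of their sites, untreated replicates 2 and 3 shared 0.874%, and pairs with untreated replicate 1 shared 0.600 and 0.602%. A 10 U and an untreated sample shared 0.488 to 0.583%. Sharing was therefore lower across the groups than within either of them in every pair, with the pairs of untreated replicate 1 closest to the pairs across groups.

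The bases beyond the cut differed between the groups. Each unique nuclear site was read as 4 bases of the broken strand, the last 2 before the 3′ end and the 2 that followed it in the genome, and the 256 combinations were counted per sample. With edgeR's quasi-likelihood test (replicate number as a block, Benjamini-Hochberg adjusted p under 0.05), 153 of 256 combinations, or 59.8%, differed between 10 U and untreated, 72 (28.1%) higher and 81 (31.6%) lower. Combinations with A or T at both bases beyond the cut were higher in 42 of 64 and lower in 4, while those with C or G at both were higher in 1 of 64 and lower in 48. The former made up 26.0, 24.6 and 24.4% of the sites in untreated replicates 1 to 3 and 35.8, 35.9 and 36.8% with 10 U, and the latter 18.2, 19.7 and 19.7% and 11.5, 11.3 and 10.9%. No sample of one group reached the range of the other in either class.

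The largest rise was for GTAT, with the end mapped between the second and the third base. GTAT held 0.179, 0.202 and 0.188% of the untreated sites and 0.532, 0.512 and 0.572% of the 10 U sites. This was a 2.89-fold difference in the fit (log2 fold change 1.53 ± 0.07, SE). GGAT followed, at 1.25, 1.06 and 1.05% against 2.74, 2.77 and 3.01% (2.59-fold), and the other 6 of the 8 that rose most were GGTA (2.21-fold), GGTT (2.19-fold), GTAA (1.90-fold), CTAT (1.88-fold), TCAT (1.81-fold) and GATA (1.81-fold). All 8 had A or T at both bases beyond the cut. The deepest fall was for GCGC, at 0.344, 0.393 and 0.403% against 0.0895, 0.0890 and 0.0768%, so that it kept 0.228 of its untreated share (log2 fold change -2.13 ± 0.08, SE). CGCG kept 0.249, GCCC 0.323, CGCC 0.326, CCGC 0.344, CCCC 0.382, GCGG 0.390 and GCCG 0.399 of their untreated share, and each of these had C or G at all 4 bases.

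Base by base, A at the first position beyond the cut rose from 36.4, 36 and 36% to 43.2, 43.6 and 44.3% of the sites. C at this position fell from 24.3, 24.3 and 25.3% to 17.9, 17.5 and 16.1%, and C at the next base from 24.2, 25.9 and 25.9% to 17.7, 17.6 and 17.0%. The base before the cut moved less, and mostly between C and G: C was the terminal base of 47.4, 45.3 and 46.0% of the untreated and 43.1, 43.4 and 42.0% of the 10 U sites, and G of 31.9, 30.5 and 30.8% and 33.8, 34.0 and 35.6%. A was the terminal base of between 10.7 and 12.3% of the sites in all 6 samples. Because the added tail is made of A and was trimmed from the reads, an end that lay within a run of A cannot be told from one placed before that run, in treated and untreated samples alike. The same holds for an end just after a single A. The rise of A beyond the mapped end, as in GTAT and GGAT, can therefore include ends that lay after that A. The small change of the terminal base has the same limit.

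**Figure D1:**
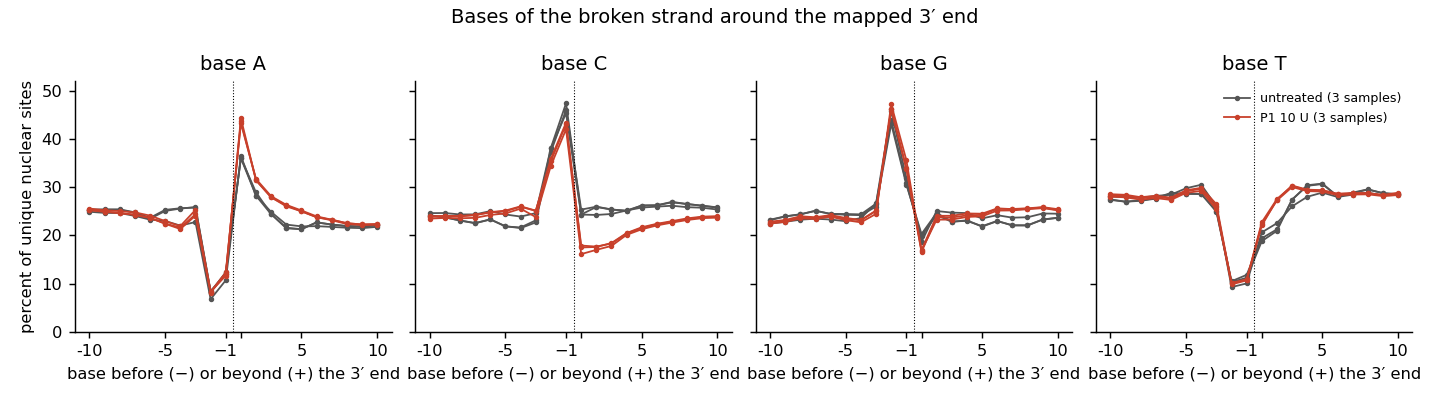
Percent of unique nuclear sites with each base (1 panel per base) at the 10 positions before (negative) and beyond (positive) the mapped 3′ end, with 1 line per sample, untreated in grey and 10 U in red. The 10 U lines run above the untreated lines for A at the first base beyond the end (43.2 to 44.3% against 36 to 36.4%) and below them for C (16.1 to 17.9% against 24.3 to 25.3%).

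Over the 10 bases on each side of the cut, A and T together made up 48.1, 49.0 and 48.9% in untreated replicates 1 to 3 and 50.3, 50.0 and 50.7% with 10 U. Comparing 3 pairs alone cannot give a two-sided p below 0.25, so for this and 8 other single values the 10 U samples were set against all other P1 amounts by an exact permutation test within replicate numbers (two-sided, smallest p 0.008). The A and T share at 10 U was 1.03 times that of the other amounts (p = 0.016, adjusted over the 9 tests 0.021, exact permutation test) and higher than the untreated sample of the same number in 3 of 3 replicates. The 1 U samples, at 49.9 to 50.1%, overlapped those with 10 U, so the share was not particular to the highest amount.

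Ends also fell closer together on one strand. After every sample was thinned to 2046116 sites, 5.16, 9.95 and 9.32% of the sites in untreated replicates 1 to 3 had another site of the same strand within 10 bp, against 12.3, 12.4 and 10.9% with 10 U. All 3 of the 10 U samples lay above every other sample of the series, whose range was 5.16 to 9.95%, and the value was 1.5 times that of the other amounts (p = 0.008, adjusted 0.014, exact permutation test, 3 of 3 replicates higher than untreated). Untreated replicate 1 was the lowest, and without replicate 1 the ratio to the other amounts was 1.36. Among sites with at least 2 termini the order turned in replicates 2 and 3 but not in replicate 1, and the groups overlapped. The values were 2.60, 3.8 and 3.8% in the untreated samples and 2.80, 2.25 and 2.66% with 10 U (ratio to other amounts 0.777, p = 0.016, exact permutation test).

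The excess lay at the shortest distances. Relative to pairs 900 to 1000 bp apart, pairs on the same strand at 1 bp were 15, 33.2 and 32.5 times as frequent in the untreated samples and 49.1, 48.2 and 39.6 times with 10 U. At 2 bp the values were 5.95, 13.6 and 12.7 against 17.8, 16.8 and 14.6, and at 10 bp 2.90, 4.39 and 4.33 against 5.25, 4.88 and 5.38. The 10 U samples were above the untreated ones at each of these 3 distances, with the gap narrowing as the distance grew. In all 6 samples the frequency rose again near 75 bp, where it was 1.88, 2.32 and 2.31 without P1 and 2.60, 2.41 and 2.53 with 10 U.

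Sites on opposite strands went the other way at close range. Sites with one of the other strand within 10 bp made up 1.65, 1.72 and 1.71% of the untreated sites and 1.52, 1.58 and 1.51% of the 10 U sites, 0.928 times the other amounts (p = 0.032, adjusted 0.036, exact permutation test, 0 of 3 replicates higher). Again the 1 U samples, at 1.52 to 1.55%, lay in the range of those with 10 U, and within 100 bp the ratio was 0.985 (p = 0.208, exact permutation test). The difference was sharpest where the end of the bottom strand lay 1 base past that of the top strand, so that the ends abut as in a blunt break: such pairs were 1.21, 1.72 and 1.60 times as frequent as distant pairs in untreated nuclei and 0.922, 0.810 and 0.876 times with 10 U. At an offset of 0 the values were 1.65, 1.77 and 1.79 against 1.29, 1.15 and 1.24. At an offset of -1, in which each end reaches past the other, untreated values of 2.56, 2.40 and 2.41 and 10 U values of 2.45, 2.44 and 2.50 overlapped.

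**Figure D2:**
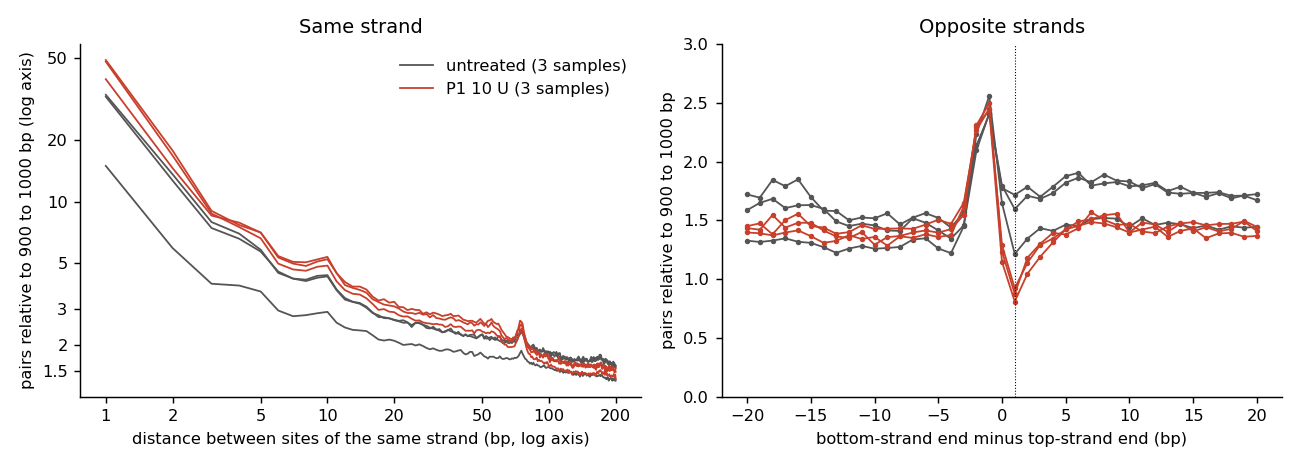
Frequency of pairs of nuclear sites by their distance, relative to pairs 900 to 1000 bp apart, with 1 line per sample, untreated in grey and 10 U in red. Left, same strand, both axes logarithmic: at 1 bp the 10 U samples reach 39.6 to 49.1 and the untreated 15 to 33.2. Right, opposite strands, with the dotted line at abutting ends (offset 1), where the 10 U samples lie at 0.810 to 0.922 and the untreated at 1.21 to 1.72.

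Nuclear sites held slightly more termini with 10 U. At equal depth a site held on average 1.06, 1.11 and 1.09 termini in the untreated and 1.10, 1.11 and 1.10 in the 10 U samples, 1.02 times the other amounts (p = 0.016, adjusted 0.021, exact permutation test); untreated replicate 2 lay within the 10 U range. Sites with 2 or more termini made up 4.35, 7.79 and 6.99% against 8.38, 9.0 and 8.28%, so all 10 U samples were above all untreated ones. The strongest sites lost weight in the same libraries, counted in full without thinning, so that the cutoff of 20 termini depends on depth. Sites with 20 or more termini held 0.662, 1.31 and 1.09% of the untreated termini and 0.332, 0.544 and 0.432% of those with 10 U.

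Around the starts of protein-coding genes, where untreated nuclei had more sites than the genome at large, the excess was smaller with 10 U. Within 1 kb of the 20090 annotated starts the density of unique sites was 1.87, 1.91 and 1.94 times that of chromosomes 1 to 22 and X without P1 and 1.56, 1.67 and 1.54 times with 10 U, 0.854 times the other amounts (p = 0.008, adjusted 0.014, exact permutation test, 0 of 3 replicates higher than untreated). All 3 of the 10 U samples were below all others of the series, whose lowest value was 1.72, in a 1 U sample. The first exon followed, at 1.99, 1.99 and 1.99 against 1.64, 1.75 and 1.58, whereas exons as a whole relative to introns did not separate, at 1.55, 1.52 and 1.48 against 1.44, 1.52 and 1.43 (ratio to other amounts 0.992, p = 0.608, exact permutation test). Sites broken on the coding strand made up 50.6 to 51.2% of the sites in gene bodies in all 6 samples.

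The difference was confined neither to one strand nor to one side of the start, and was deepest next to it. In the 100 bp before the start the mean relative density over both strands was 2.14, 2.37 and 2.29 without P1 and 1.15, 1.20 and 1.09 with 10 U, with the 1 U samples between at 1.62 to 1.84. In the first 100 bp of the gene it was 2.24, 2.46 and 2.50 against 1.32, 1.41 and 1.26, and from 100 to 200 bp 2.09, 2.06 and 2.04 against 1.81, 1.87 and 1.69. The template strand of those first 100 bp went from 2.41, 2.73 and 2.79 to 1.34, 1.44 and 1.30 and the coding strand from 2.08, 2.19 and 2.21 to 1.30, 1.38 and 1.22. Between 900 and 1000 bp upstream the groups overlapped, at 1.49, 1.59 and 1.5 against 1.48, 1.55 and 1.53.

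**Figure D3:**
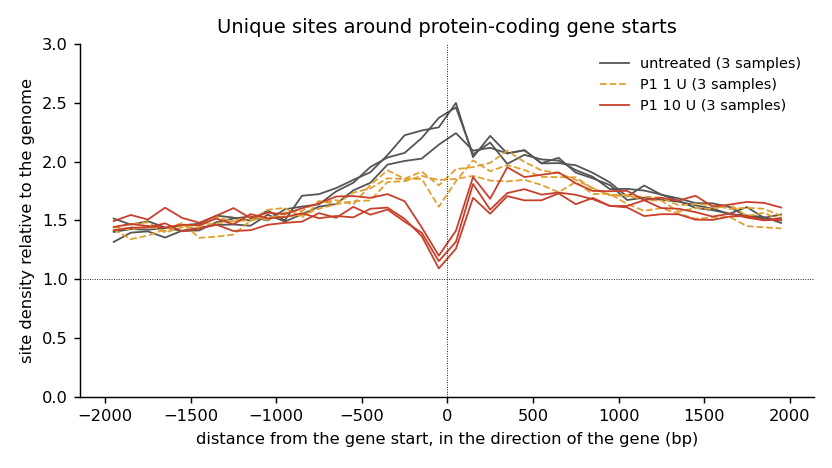
Density of unique nuclear sites, relative to the genome, in 100-bp bins from 2000 bp before to 2000 bp after the start of protein-coding genes, with 1 line per sample, untreated in grey, 1 U dashed in yellow and 10 U in red. The 10 U samples dip to 1.09 to 1.20 in the 100 bp before the start, where the untreated samples reach 2.14 to 2.37.

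The base content of the gene start went with the size of the fall. For the 11471 genes with 60% or more G and C in the 200 bp on each side of the start, the density in that stretch was 2.26, 2.41 and 2.40 without P1 and 1.31, 1.38 and 1.20 with 10 U, and for the 6265 genes with 45 to 60% it was 2.32, 2.50 and 2.50 against 1.78, 1.88 and 1.80. For the 2354 genes with under 45% it was 0.943, 1.03 and 1.05 against 0.977, 0.910 and 0.934, and the groups overlapped. The part of the base preference at the cut in this order was not tested.

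Gene families differed in their starting level and, by description, in their fall. The 84 cytosolic ribosomal protein genes, which are among the most transcribed of all genes, had 3.08, 4.02 and 3.92 times the genome's density within 200 bp of their starts without P1 and 1.72, 1.85 and 1.72 times with 10 U. The 64 replication-dependent histone genes, transcribed as DNA is copied, went from 3.41, 4.82 and 4.61 to 1.62, 2.09 and 1.35, and the 508 ZNF zinc finger genes from 2.72, 3.14 and 2.95 to 1.53, 1.78 and 1.55. For all 20090 genes the same values were 2.13, 2.27 and 2.27 against 1.42, 1.48 and 1.35, so each of these families stood above the whole in every untreated sample. The 30 replication licensing and helicase genes, such as those for the MCM proteins that unwind origins, had 3.79, 3.61 and 2.62 against 2.09, 1.08 and 1.54, and the 22 genes for single-strand break repair, such as PARP1 and XRCC1, 2.42, 2.83 and 3.28 against 1.61, 1.47 and 1.31, both from few sites (25 to 62 and 19 to 29 in the untreated samples).

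The 50 erythroid genes, which include the globins that K562 can express, stood at 2.35, 2.10 and 1.88 against 1.47, 1.34 and 1.04, without overlap. The groups overlapped for the 399 olfactory receptor genes, at 1.00, 0.888 and 1.01 against 1.14, 0.996 and 0.824, and for the 94 keratin-associated protein genes, at 2.24, 2.06 and 1.67 against 1.86, 2.30 and 2.64. The 53 clustered protocadherin genes, cell adhesion genes of neurons, had 1.49, 1.61 and 1.24 against 0.978, 1.06 and 0.762, and the 38 very long genes, of which many span common fragile sites, 1.40, 1.73 and 1.90 against 0.718, 1.59 and 1.06, with overlap in the latter only. Within 1 kb of the start the erythroid genes, at 1.93, 2.23 and 2.13 against 1.62, 2.15 and 1.47, and the protocadherin genes, at 1.29, 1.14 and 1.10 against 1.24, 1.27 and 1.12, overlapped between the groups too. These sets are descriptions beside the value for all genes, and no family was tested on its own.

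Over whole gene bodies few genes differed. Of 16049 protein-coding genes with enough sites, 11 passed edgeR's quasi-likelihood test (adjusted p under 0.05), or 0.0685%, with 6 (0.0374%) higher and 5 (0.0312%) lower at 10 U; 1358 had an unadjusted p under 0.05, and DESeq2 called 0 genes (87 at an unadjusted p under 0.05). The calls rested on all replicates: without replicate 3 there were 0, without replicate 2 there was 1, and without replicate 1 there were 9, of which 4 were among the 11. The median log2 fold change over all genes was -0.0017.

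L1TD1, a gene derived from a LINE-1 element that is active in pluripotent cells, had 11, 6 and 7 sites in the untreated samples and 29, 28 and 23 with 10 U, a 3.30-fold difference per library (log2 fold change 1.72 ± 0.34, SE, adjusted p = 0.0055). The kilobase with the most 10 U sites held 41.3% of the gene's 10 U sites and 20.8% of its untreated sites, a difference that the choice of the kilobase favours. FSCN3, a testis fascin that bundles actin, had 36, 22 and 23 sites against 60, 51 and 54 (2.03-fold), with 36.4% of the 10 U and 12.4% of the untreated sites in the kilobase chosen in the same way, and MANBAL, a small membrane protein gene, 63, 25 and 46 against 70, 96 and 82 (1.81-fold). URM1, a ubiquitin-like sulfur carrier for tRNA (1.94-fold), MZF1, a myeloid zinc finger factor (2.00-fold), and PHKB, the beta subunit of phosphorylase kinase (1.35-fold), were the other 3 that rose, and the FSCN3 and PHKB bodies overlap other genes, whose sites cannot be told apart from theirs.

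PTBP1, a splicing repressor whose body has 61.2% G and C, had 65, 30 and 39 sites without P1 and 19, 22 and 19 with 10 U and kept 0.447 of its untreated level (log2 fold change -1.16 ± 0.24, SE, adjusted p = 0.0055). KIF5B, the heavy chain of kinesin-1, had 63, 34 and 37 against 8, 37 and 26 sites (0.491). This call did not hold without replicate number 1. With the 10 U and the untreated sample of that number both left out, the log2 fold change was -0.57 (edgeR adjusted p = 0.49). ANKRD30BL (0.675), which has near-identical relatives in the genome that could share its reads, PATJ, a cell polarity scaffold next to L1TD1 on chromosome 1 (0.783), and the gene model ENSG00000271810, which overlaps RHOC and PPM1J (0.506), completed the 5.

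None of the 10 gene families held a called gene in its body, which is near the background share of 0.0685% of all genes tested and is no result about the families. The 46 ribosomal protein genes tested had a median log2 fold change of -0.19 with 28.3% above 0, the 10 histone genes tested, which share near-identical copies, -0.39 with 10% above 0, and the 38 very long genes -0.08 with 2.63% above 0. Over all genes 49.7% were above 0. The 18 single-strand break repair genes tested had a median of 0.16 with 77.8% above 0, the erythroid, licensing, olfactory receptor, ZNF and protocadherin genes lay between -0.02 and 0.04, and the 2 keratin-associated protein genes tested had -0.42.

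In mitochondrial DNA the positions that stood out in untreated nuclei held a far smaller share with 10 U. Mitochondrial termini were 2.59, 16.4 and 16.4% of all termini in the untreated samples and 1.44, 1.46 and 1.07% with 10 U, 0.101 times the other amounts (p = 0.008, adjusted 0.014, exact permutation test, 0 of 3 replicates higher). Untreated replicate 1 was far below the other untreated samples, and without replicate 1 the ratio was 0.0790. Counted as unique sites at equal depth the mitochondrial share was 0.424, 1.04 and 1.01% without P1 and 0.452, 0.465 and 0.381% with 10 U, 0.463 times the other amounts (p = 0.016, exact permutation test), and 10 U replicate 1 was above its untreated sample. These shares cannot tell fewer mitochondrial ends from less mitochondrial DNA in the nuclear pellet or from more nuclear ends. Which of these held was not tested.

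H-strand ends of the NCR made up 65.4, 66.3 and 69.1% of mitochondrial termini without P1 and 19.8, 16.7 and 23.9% with 10 U, while L-strand ends of the NCR went from 1.28, 1.03 and 0.944% to 7.35, 7.05 and 6.77%, a 6.56-fold higher share. Both are shares of one total. The fall of the H-strand NCR share would raise every other share even if those ends did not change among themselves. At equal depth the 10 positions with the most termini held 61.0, 61.2 and 63.5% of the untreated mitochondrial termini and 12.4, 10.6 and 15.4% with 10 U, 0.261 times the other amounts (p = 0.008, adjusted 0.014, exact permutation test, 0 of 3 replicates higher). With 1 U the top 10 positions held 21.1 to 23.2%, between untreated and 10 U, so much of the fall was present at 1 U already. Outside the NCR the order of untreated and 10 U was the opposite, with 3.03, 2.43 and 3.17% at the top 10 positions without P1 and 7.0, 6.19 and 7.71% with 10 U (ratio 2.37, p = 0.008, exact permutation test).

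Positions moved in both directions. Their values are shares of the same total, so each rise includes what the fall of the H-strand NCR share adds to every other share. Position 16107 of the H strand held 33.2, 31.6 and 33.4% of mitochondrial termini in untreated and 4.23, 3.48 and 5.76% in 10 U samples, and remained the highest of all. Position 14116 of the H strand went from 0.489, 0.311 and 0.466% to 2.04, 1.70 and 2.38%, and position 16126 from 0.0446, 0.0875 and 0.0751% to 0.823, 0.739 and 0.807%. Several positions were nearly empty without P1: position 2753 of the H strand held 0.0018, 0.0015 and 0.00041% and rose to 0.401, 0.308 and 0.324%, and position 1961 of the L strand held 0.0223, 0.0064 and 0.0041% and rose to 0.497, 0.488 and 0.398%. Positions are numbered as in the mitochondrial sequence that the files use, which is longer than the reference at hand.

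More different mitochondrial positions were seen with 10 U. In 29622 termini, the number in the smallest sample, untreated replicates 1 to 3 showed 6361, 5909 and 5528 different positions and strands and the 10 U samples 9212, 9378 and 9156, so that a position held 4.66, 5.01 and 5.36 termini on average without P1 and 3.22, 3.16 and 3.24 with 10 U (0.671 times the other amounts, p = 0.008, adjusted 0.014, exact permutation test). H-strand positions went from 3164, 2876 and 2769 to 5174, 5104 and 5234, and L-strand positions from 3196, 3048 and 2773 to 4035, 4264 and 3922. With 1 U the H-strand positions were more than with 10 U, at 5781 to 5895, and the L-strand positions fewer, at 2002 to 2998. Against all other amounts the H-strand number was 1.43 times (p = 0.16) and the L-strand number 1.64 times (p = 0.008), both by unadjusted exact permutation test. Outside the NCR termini per position were not lower, at 2.29, 2.43 and 2.46 against 2.59, 2.58 and 2.53 (ratio to other amounts 1.04, p = 0.104, exact permutation test).

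Counts in 100-bp windows of each strand showed where the remaining ends lay. Of 332 windows, 197 or 59.3% differed by edgeR's quasi-likelihood test (adjusted p under 0.05) after TMM scaling, 100 (30.1%) higher and 97 (29.2%) lower with 10 U. The H strand had 72 higher and 21 lower of 166 windows and the L strand 28 higher and 76 lower of 166. These directions are relative to the middle of all windows, and scaling by library size alone, with the NCR termini in the total, gave 283 higher and 4 lower. When each position was counted once, 42 windows passed, 29 higher and 13 lower.

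The H-strand window from 16101 held 71642, 302760 and 327595 termini without P1 and 5410, 6099 and 4875 with 10 U, and kept 0.0946 of its scaled level, although by unique positions it was not lower (log2 fold change 0.49). The window that ends at position 200, also in the NCR, rose 11.5-fold on the L strand (129, 276 and 247 against 794, 894 and 488 termini) and 7.98-fold on the H strand. The H-strand windows from 10401 (5.76-fold) and 7501 (5.66-fold) and the L-strand window from 16101 (5.74-fold) followed. The 4 other windows that fell most were all on the L strand and outside the NCR, from 11101 (0.333), 701 (0.343), 13901 (0.352) and 7401 (0.367).

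Genes outside the NCR were read as shares of the termini outside the NCR, and their limits were moved by up to 2 bases because the annotation and the files number the mitochondrial genome differently. On the H strand 10 of the 13 protein-coding genes had a higher share in every 10 U replicate than in the untreated sample of its number under every limit. On the L strand 10 of 13 had a lower share. Both strands were divided by one total, so these shifts are tied, and a lower share need not mean fewer L-strand ends. The H strand held 48.8, 46.1 and 49.0% of the termini outside the NCR in the untreated samples and 58.7, 56.1 and 62.8% with 10 U. It held 65.6, 67.6 and 71.0% with 0.1 U and 73.9, 80.1 and 85.0% with 1 U. MT-ND4L and MT-ATP8, short genes for a complex I subunit and an ATP synthase subunit, had the largest H-strand ratios among protein-coding genes, 1.93 and 1.70, with shares of 0.728, 0.730 and 0.790% against 1.44, 1.29 and 1.63% for MT-ND4L. MT-ND1, MT-CO1 and MT-ND4 on the H strand, at 1.05, 0.992 and 1.01, moved in no single direction. MT-ND5, another complex I subunit and the gene with the most termini, had 7.96, 6.88 and 8.10% against 9.60, 8.45 and 10.5% on the H strand (ratio 1.24) and 6.31, 6.38 and 6.02% against 3.90, 4.31 and 3.78% on the L strand (ratio 0.640).

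The rRNA genes differed from each other. MT-RNR1, for the small ribosomal RNA, had an H-strand ratio of 1.01 with mixed directions and an L-strand ratio of 0.641, while MT-RNR2, for the large one, was higher on both strands, at 1.44 and 1.12. Of the 22 tRNA genes, 12 were higher on the H strand in every replicate and 5 lower, against 2 higher and 13 lower on the L strand. MT-TT had the largest ratio of the protein, rRNA and tRNA genes on either strand, 4.06 on the H strand, from 0.110, 0.0726 and 0.0584% to 0.365, 0.374 and 0.229%. With mitochondrial termini of 29622 to 57127 in the 10 U samples, tRNA genes rest on few counts.

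**Figure D4:**
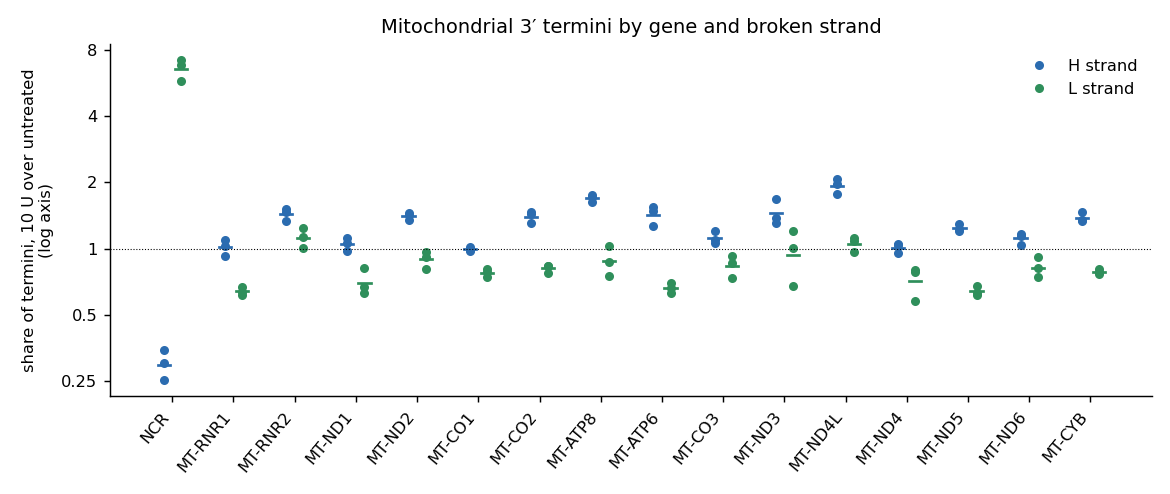
Ratio of 10 U to untreated in the share of mitochondrial termini, by gene and broken strand (H blue, L green), with 1 point per replicate number and the geometric mean as a line, on a log axis. The share is of all mitochondrial termini for the NCR and of termini outside the NCR for the genes. Both NCR strands are divided by one total, so their ratios are tied. The NCR points lie near 0.298 on the H strand and near 6.56 on the L strand, and most genes lie above 1 on the H strand and below 1 on the L strand.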

How the data were processed

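The authors trimmed reads with the expected tails, aligned them with BWA (version 0.7.12 in the submitters' processing notes) to the mitochondrial genome and to hg19 (GRCh37), and deposited the count of termini for each position and strand; nuclear termini with more than 40% T in the 20 bases upstream of the read were removed by the authors. The deposited region lists come from SICER 1.1, run per 10 U sample against the untreated sample of its number, and only their coordinates were used; their ratio, p-value and FDR columns hold the authors' own comparison and were left out, as were the RPM columns and lists of clustered sites.

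The broken strand is opposite to the file's strand. Nuclear sites on chromosomes 1 to 22 and X were kept and annotated with GENCODE 44 lifted to GRCh37. For neighbours, termini per site and mitochondrial positions, sites or termini were thinned to the smallest of the 15 samples (mean of 5 draws for nuclear neighbours, 20 for mitochondrial positions). Base content around the cut and densities of gene features used all sites of each sample. Counts were fitted with edgeR 4.0.16 (TMM, filterByExpr, glmQLFit) in R 4.3.3, with DESeq2 1.42.0 as an alternative; on simulated data the fit recovered 97.5% of 1.5-fold changes for base combinations, 50.5% for genes and 57.5% for mitochondrial windows. The replicate number was a block because the authors paired samples by it; deviations of same-numbered samples correlated at -0.016, -0.36 and 0.058 for base combinations, at most 0.023 for genes, and 0.19, 0.10 and 0.28 for mitochondrial windows. Single values were tested in Python 3.11.15 with scipy 1.17.1 and numpy 2.4.6 by exact enumeration. The report gives nuclear total counts as a range and mitochondrial totals per sample; the number of termini limits the precision of each value.

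Named items were, by rule, the 10 genes per direction with the smallest p among those called and moved alike in every replicate, the 8 base combinations and 5 mitochondrial windows per direction with the largest fold, all mitochondrial genes, the 5 positions and the 5 region stretches with most 10 U ends; all positions tied at the last place are shown, and some of the stretches and positions that the rule names are not reported here. The compared samples, gene lists and measures were chosen with earlier results of these data known.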

Additional observations from a re-analysis of the deposited data

How the results depend on the processing

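Leaving out each replicate number in turn gave 105 to 169 called base combinations, 0 to 9 genes and 123 to 196 mitochondrial windows, and ratios to the other amounts of 1.02 to 1.03 for A and T around the cut, 1.01 to 1.02 for nuclear termini per site, 1.36 to 1.59 for same-strand neighbours, 0.917 to 0.937 for opposite-strand neighbours, 0.838 to 0.865 for gene starts, 0.976 to 1.00 for exons, 0.0790 to 0.125 for the mitochondrial share, 0.640 to 0.699 for mitochondrial termini per position and 0.238 to 0.289 for the top positions; with 2 numbers the smallest p is 0.04, and A and T around the cut, nuclear termini per site, opposite-strand neighbours and mitochondrial termini per position missed it in at least 1 case. Gene calls were the least stable: 0 with DESeq2, 0 with every sample thinned to the smallest, 59 (19 higher, 40 lower) with all termini and 17 (8 higher, 9 lower) with a GC offset and the replicate block. Mitochondrial window calls fell to 42 with unique positions, where the H-strand window from 16101 turned to a log2 fold change of 0.49. With no replicate block there were 155 base combinations, 10 genes and 192 windows, and nuclear termini per site, at 1.02, had p = 0.062 (exact permutation test). Same-strand neighbours turned to 0.777 among sites with at least 2 termini, and opposite-strand neighbours weakened to 0.985 within 100 bp and 0.991 with all sites. Exon density was 1.00 with all termini and 1.03 in exons after the first. Mitochondrial termini per position and top positions turned to 1.04 and 2.37 outside the NCR. Of the alternatives for counts of calls, 8 moved beyond 1.5-fold of the count in the main fit. The other 21 stayed within it, whatever the directions of the calls. Mitochondrial windows scaled by library size alone were among these, although nearly all of their calls were then higher. Direction and side of the threshold were kept by 38 alternatives for single values, while 11 fell short of the threshold and 6 changed direction. Both were kept by 292 of 350 checks of named features. The cause of these changes was not tested. The mitochondrial share was 0.463 by unique sites at equal depth. At these depths 50.5% of simulated 1.5-fold changes of genes were recovered.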
